A study of Mus musculus with 10 samples.

Results

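The genes described here encode 10 feedback inhibitors of the RAS-ERK pathway: the Sprouty genes Spry1, Spry2 and Spry4, the Sprouty-related genes Spred1 and Spred2, the dual-specificity phosphatase genes Dusp1, Dusp4, Dusp5 and Dusp6, and Phlda1. They were taken by symbol from the 16251 genes of the deposited table, and all 10 had enough reads to be among the 12161 genes tested. Messenger RNA came from mouse primary lymphatic endothelial cells (LECs), the lining cells of lymphatic vessels. Cells of 5 libraries, labelled Vegfr2 siRNA, had received 50 nM of a small interfering RNA (siRNA) against Vegfr2 48 h earlier. The other 5 libraries were labelled control, and their titles also give 48 h. All 10 libraries carry the treatment tag for siRNA knockdown, and the labels name neither a control duplex nor separate cultures, so p-values measure the spread between these libraries, which may be technical. Vegfr2 is the receptor of vascular endothelial growth factor encoded by Kdr.

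In endothelium VEGFR2 and its relative VEGFR3 activate the kinase cascade RAS, RAF, MEK and ERK. ERK in turn induces transcription of proteins that weaken the same signal, so the messages of these inhibitors are widely read as a record of recent ERK activity. Sprouty proteins act between the receptor and RAF. Spred proteins bring the RAS inactivator neurofibromin to the membrane, and the Dusp enzymes take phosphate off ERK and related kinases. In mice Spry and Spred genes are known to restrain lymphatic growth.

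The libraries held 17946483 to 18239260 estimated reads, and no library stood apart by its total. Kdr was at 186 ± 14.8 CPM in siRNA cells and 1323 ± 66.3 CPM in control cells (SD, n = 5 each), where CPM are read counts scaled to a common library size. Of all tested genes 71.3% had an adjusted p under 0.05, 36.1% higher and 35.2% lower in siRNA cells, and 8.56% differed by more than 1.5-fold in edgeR's glmTreat test. Of 8 markers of lymphatic and blood vessel lining, 6 fell, 1 rose and 1 did not pass that threshold. They summed to 8509 to 8992 CPM in siRNA and 11180 to 11710 CPM in control libraries. A large part of that difference was Flt4, the VEGFR3 gene, at 1424 ± 71.4 CPM in siRNA and 2967 ± 114 CPM in control cells. The 9 fibroblast and mural markers summed to 13.1 to 15.0 CPM in siRNA and 11.8 to 16.9 CPM in control libraries, and the 4 blood markers with a value to 30.1 to 40.5 and 41.9 to 49.9 CPM in siRNA and control libraries, nearly all of it Cd68, while Spi1 had at most 1 read in any library. The 4 epithelial markers with a value summed to 7.68 to 8.73 CPM in siRNA and 1.22 to 2.46 CPM in control libraries, nearly all of it Krt18, with Epcam and Cdh1 at 0 to 2 reads. The part of these shifts in the results below was not tested, and in bulk RNA fewer cells with a transcript and less of it per cell cannot be told apart.

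The feedback inhibitors did not move as 1 block. After the siRNA 6 members rose (Dusp5, Dusp4, Spry4, Dusp1, Dusp6 and Spred2), 3 fell (Spry1, Phlda1 and Spry2) and Spred1 did not pass the test, by edgeR's quasi-likelihood test with Benjamini-Hochberg adjustment over all genes tested. That is 90.0% of the members beside 71.3% of all tested genes. The libraries of both groups did not overlap for 7 members, 5 of them higher and 2 lower, beside 57.0% of all tested genes. For Spry2, 1 of the 2 lower, the gap was narrow and rested on the scaling between libraries. Changes of more than 1.5-fold were called for 4 members, with Dusp5, Dusp4 and Spry4 higher and Spry1 lower. The median log2 fold change of the members, siRNA over control, was 0.12, beside -0.0019 over all tested genes.

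**Figure D1:**
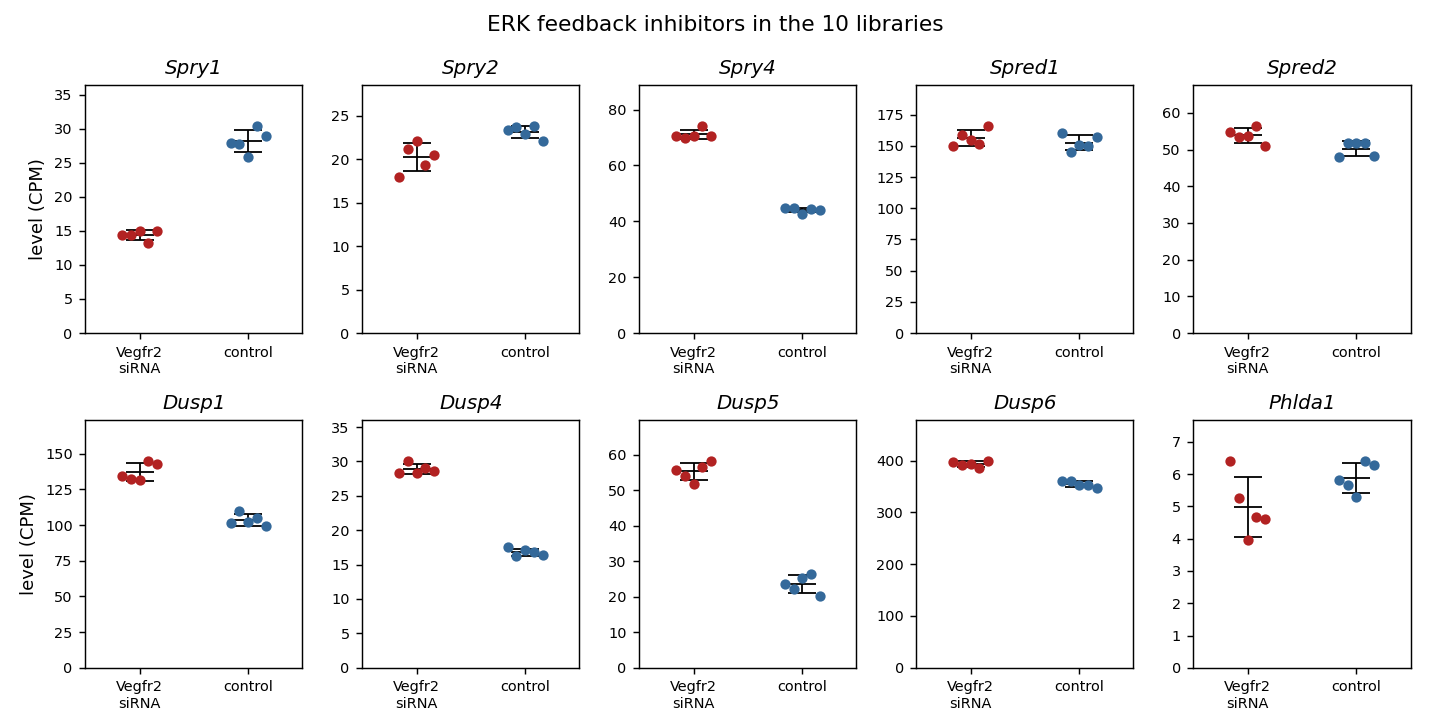
Level of each feedback inhibitor in CPM (y axes, from 0) in the 5 Vegfr2 siRNA libraries (red, left) and the 5 control libraries (blue, right), with the mean and SD in black. Dusp5, Dusp4, Spry4 and Dusp1 stand higher in every siRNA library, Spry1 lower in each, and the groups overlap for Spred1, Spred2 and Phlda1.

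Dusp5, which encodes a nuclear phosphatase that acts on ERK and also holds it in the nucleus, had the largest rise of the members. It had 55.7, 53.9, 51.8, 56.6 and 58.2 CPM in the siRNA libraries, against 23.4, 22.2, 25.3, 26.5 and 20.1 CPM in the control libraries. Every siRNA library lay above every control library. The log2 fold change was 1.23 (SE 0.051, edgeR adjusted p = 1.09e-19), a 2.35-fold higher level, which ranked 163 among the 12161 tested genes by size of rise. Dusp5 (Entrez gene 240672) lies on chromosome 19, 53529145 to 53541809 (GRCm38.p6), and 22.1% of its exon bases lie under a gene of the other strand. Without a stated strand setting, reads from the 2 strands cannot be told apart there.

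Promoter windows of members ran from 250 bases before to 50 after the annotated start in RefSeq on GRCm38.p6. They were searched on both strands for binding words of factors known to act after ERK and other kinases, and for the TATA box. The search covered 7 members (Spry1, Spry2, Spred1, Spred2, Dusp1, Dusp5 and Dusp6). Windows of Spry4, Dusp4 and Phlda1 were not searched. The words were the CArG box of serum response factor (found in 1.63% of all 32851 windows), the cAMP response element TGACGTCA (1.79%) and its core TGACGT (7.51%), the AP-1 word TGANTCA (7.81%), the ETS word CCGGAAG (8.86%) and TATAAA (13.6%). Matches were present in 3 windows, those of Dusp5, Dusp1 and Spred2. Dusp5 had 2 CArG boxes side by side, at 82 and 72 bases before the start, which share no base, and a TGACGT core at 56 bases before it. In all, 6 of the 32851 windows (0.0183%) hold 2 or more CArG boxes. For the TGACGT core, counted on both strands, 714 windows (2.17%) hold 2 or more matches, as does that of Dusp1. The part of these words in the rise of Dusp5 or Dusp1 was not tested. The window of the member with the largest rise and that of Dusp1, which holds the only whole TGACGTCA among the 7 windows, are shown 5′ to 3′ on the strand of the gene, with all matches in capitals.

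Dusp5, chr19:53528895-53529194, plus strand: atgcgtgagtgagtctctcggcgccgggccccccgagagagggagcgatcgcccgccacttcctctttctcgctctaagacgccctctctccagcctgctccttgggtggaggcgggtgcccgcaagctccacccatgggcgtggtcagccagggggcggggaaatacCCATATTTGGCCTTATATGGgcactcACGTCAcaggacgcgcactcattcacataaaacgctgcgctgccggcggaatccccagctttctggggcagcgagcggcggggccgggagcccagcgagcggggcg

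Dusp1, chr17:26508423-26508722, minus strand: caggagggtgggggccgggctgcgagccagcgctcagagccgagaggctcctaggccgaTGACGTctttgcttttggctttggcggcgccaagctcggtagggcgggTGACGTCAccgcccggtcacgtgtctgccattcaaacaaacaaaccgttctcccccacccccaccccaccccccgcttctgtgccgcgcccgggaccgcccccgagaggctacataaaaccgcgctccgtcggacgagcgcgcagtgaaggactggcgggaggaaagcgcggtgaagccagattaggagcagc

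In the Dusp1 window the whole element starts 143 bases before the start and contains the core on both strands, and a separate core lies 191 bases before the start. The Spred2 window has 1 core, 52 bases before the start. A match describes these letters and does not show that a factor binds.

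Dusp4 and Dusp1, which encode nuclear phosphatases of ERK, JNK and p38, also rose. Dusp4 (Entrez gene 319520, chromosome 8, 34807610 to 34819894) had 28.4, 30.1, 28.4, 29.1 and 28.6 CPM in the siRNA libraries and 17.5, 16.2, 17.1, 16.8 and 16.4 CPM in the control libraries. All siRNA libraries were above all control libraries, with a log2 fold change of 0.78 (SE 0.048, edgeR adjusted p = 1.93e-18). Dusp1 (Entrez gene 19252, chromosome 17, 26505591 to 26508472), an immediate early gene also induced by stress, had 134, 132, 131, 145 and 143 CPM in the siRNA libraries and 101, 110, 102, 105 and 99.3 CPM in the control libraries. The groups again did not overlap, with a smaller log2 fold change of 0.41 (SE 0.031, adjusted p = 4.56e-15), and Dusp1 was not called in the test for more than 1.5-fold.

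Dusp6, the cytoplasmic phosphatase that is selective for ERK, was by far the most abundant member and changed little. Dusp6 (Entrez gene 67603, chromosome 10, 99263231 to 99267489) had 397, 392, 394, 386 and 399 CPM in the siRNA libraries, against 361, 361, 353, 353 and 346 CPM in the control libraries. The siRNA libraries all lay above the control libraries, but the rise was 1.11-fold, a log2 fold change of 0.15 (SE 0.023, edgeR adjusted p = 1.96e-07). Its spread within a group was the narrowest of the members, with a coefficient of variation of 1.32% in siRNA and 1.77% in control libraries.

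**Figure D2:**
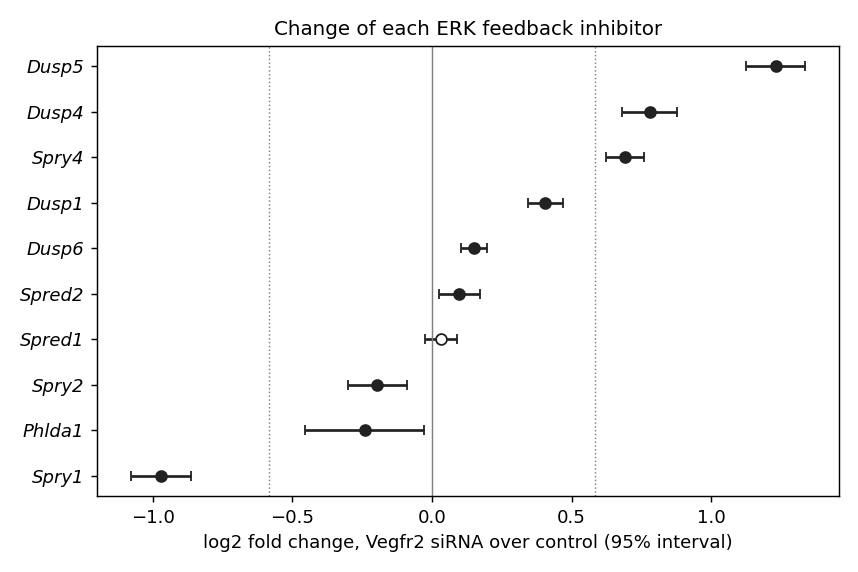
Log2 fold change of each feedback inhibitor (x axis), Vegfr2 siRNA over control, with its 95% interval. Filled points had an adjusted p under 0.05, the open point (Spred1) did not, and the dotted lines mark 1.5-fold in each direction, which the intervals of Dusp5, Dusp4 and Spry4 exceed upward and that of Spry1 downward.

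Spry4 and Spry1, both adaptors that block the path from growth factor receptors to RAF, moved in opposite directions. Spry4 (Entrez gene 24066, chromosome 18, 38586247 to 38601347) had 70.6, 69.9, 70.5, 74.0 and 70.7 CPM in the siRNA libraries, against 44.6, 44.7, 42.6, 44.2 and 44.0 CPM in the control libraries. The groups were far apart, with a log2 fold change of 0.69 (SE 0.034, edgeR adjusted p = 5.20e-22). Spry1 (Entrez gene 24063, chromosome 3, 37639947 to 37644599) had 14.5, 14.4, 14.9, 13.2 and 14.9 CPM in the siRNA libraries, against 28.0, 27.8, 25.9, 30.4 and 28.9 CPM in the control libraries. Its level after the siRNA was 0.51 times the control level, with no overlap, and its log2 fold change was -0.97 (SE 0.054, adjusted p = 4.35e-20), which ranked 354 of 12161 by size of fall. A gene of the other strand covers 24.4% of its exon bases.

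Spry2, the third Sprouty gene, fell slightly. The gene (Entrez gene 24064, chromosome 14, 105891947 to 105896819) had 18.02, 21.2, 22.1, 19.4 and 20.5 CPM in the siRNA libraries and 23.3, 23.7, 22.9, 23.8 and 22.1 CPM in the control libraries. The highest siRNA library was just under the lowest control library (22.06 and 22.09 CPM), and on the log2 scale the change was -0.20 (SE 0.053, edgeR adjusted p = 0.00113). These 2 libraries had 402 and 394 reads of Spry2, and divided by the library totals alone their order is reversed.

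The level of the Sprouty genes summed per kilobase of exon differed by less than its spread between libraries, while its make-up shifted. Per kilobase of exon, which allows levels of different genes to be compared, Spry1, Spry2 and Spry4 together were at 29.6 ± 0.765 CPM per kb in siRNA cells and 30.1 ± 0.847 CPM per kb in control cells (SD, n = 5 each). Their ranges overlapped, 28.5 to 30.5 in siRNA and 28.8 to 31.2 CPM per kb in control libraries. That sum depends on the exon lengths used, 2906 bases for Spry1, 2087 for Spry2 and 4755 for Spry4. In CPM without division by length, the sum was higher in every siRNA library than in any control library. Spry4 made up 50.6% ± 1.92 of the sum in siRNA cells and 30.8% ± 0.532 in control cells. Spry1 made up 16.7% ± 0.791 in siRNA cells and 32.3% ± 1.18 in control cells, and Spry2 32.7% ± 1.77 and 36.9% ± 0.951 in siRNA and control cells. Per kilobase, Spry2 thus stood somewhat above Spry1 and Spry4 in control cells, while in siRNA cells Spry4 was the most abundant and Spry1 the least.

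**Figure D3:**
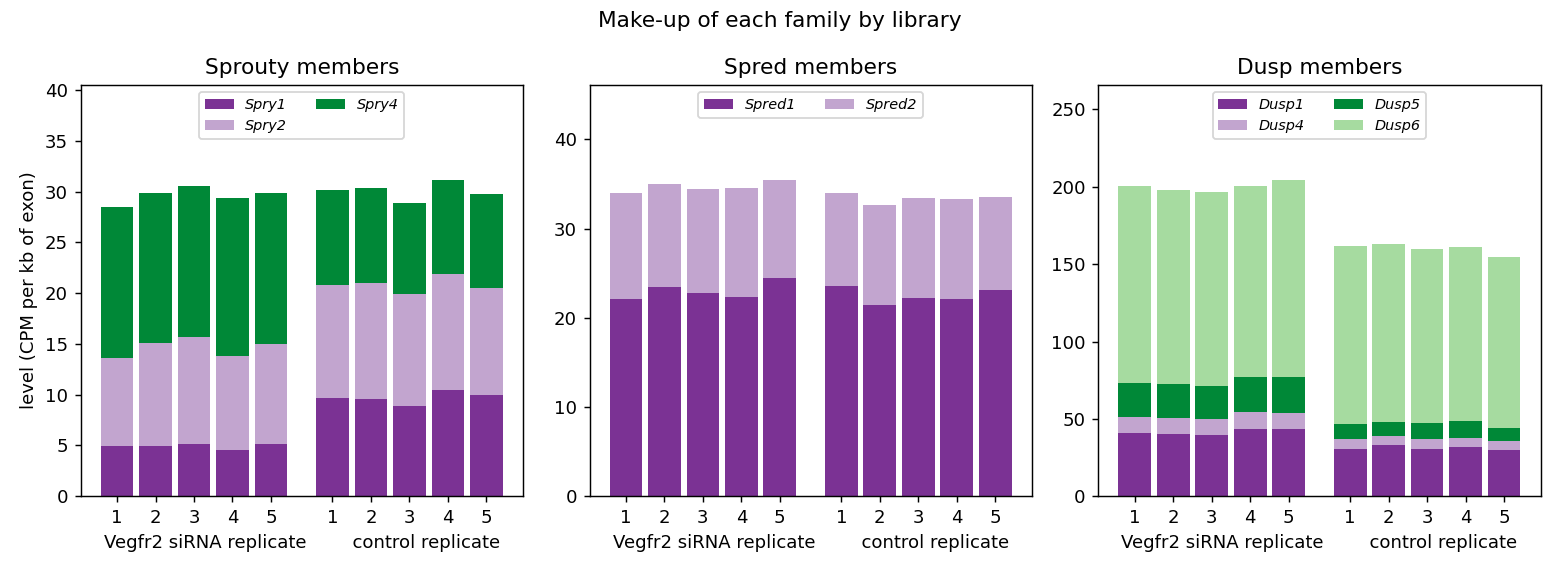
Stacked level of the Sprouty, Spred and Dusp members (y axes, CPM per kb of exon, from 0) in each Vegfr2 siRNA library (left 5 bars) and control library (right 5 bars). The Sprouty bars are of like height in both groups (28.5 to 30.5 and 28.8 to 31.2) with more Spry4 and less Spry1 in siRNA libraries, the Spred bars differ little, and the Dusp bars are higher in siRNA libraries.

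Spred1 and Spred2 differed little between the groups. Spred1 (Entrez gene 114715, chromosome 2, 117121071 to 117182279), whose loss causes Legius syndrome in humans, had 150, 159, 155, 152 and 166 CPM in the siRNA libraries, against 160, 146, 150, 150 and 157 CPM in the control libraries. The groups overlapped, and the log2 fold change of 0.03 had a 95% interval of -0.03 to 0.09 (edgeR adjusted p = 0.312). Spred2 (Entrez gene 114716, chromosome 11, 19924442 to 20024026) had 54.8, 53.5, 53.6, 56.3 and 51.0 CPM in the siRNA libraries and 48.0, 51.8, 51.7, 51.7 and 48.2 CPM in the control libraries. Its groups overlapped at 1 siRNA library, and it rose by 0.10 on the log2 scale (SE 0.037, adjusted p = 0.0161). That call was lost without siRNA replicate 4 (log2 fold change 0.08, adjusted p = 0.0557) and without control replicate 1 (0.08, adjusted p = 0.0531).

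Phlda1, an ERK-responsive transcript that encodes a pleckstrin homology-like domain protein, was the least abundant member. It had 6.41, 5.27, 3.95, 4.66 and 4.62 CPM in the siRNA libraries and 5.82, 5.67, 5.28, 6.41 and 6.28 CPM in the control libraries, which is 72 to 117 reads a library. The groups overlapped, since siRNA replicate 1 was as high as the highest control. It fell by 0.24 on the log2 scale (SE 0.105, edgeR adjusted p = 0.0383). That call was lost without siRNA replicate 3 (log2 fold change -0.17, adjusted p = 0.156), 4 (-0.22, 0.0832) or 5 (-0.22, 0.0845), without control replicate 1 (-0.24, 0.0527), 4 (-0.21, 0.0999) or 5 (-0.22, 0.0839), and with DESeq2 (-0.24, adjusted p = 0.0756). Phlda1 (Entrez gene 21664, chromosome 10, 111506286 to 111508649) has 33.0% of its exon bases under a gene of the other strand.

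Ordered per length, Dusp6 was the highest member in both groups, at 126 ± 1.66 CPM per kb in siRNA cells and 113 ± 2.00 CPM per kb in control cells (SD, n = 5 each). Dusp1 came next, at 41.4 ± 1.90 CPM per kb in siRNA and 31.2 ± 1.24 CPM per kb in control cells. Phlda1 was the lowest, at 2.26 ± 0.418 and 2.67 ± 0.208 CPM per kb in siRNA and control cells. Between them, siRNA cells had Spred1 (23.0 ± 0.940), Dusp5 (22.3 ± 1.00), Spry4 (15.0 ± 0.341), Spred2 (11.7 ± 0.428), Dusp4 (10.5 ± 0.261), Spry2 (9.70 ± 0.761) and Spry1 (4.95 ± 0.247 CPM per kb). Spred1 and Dusp5 did not differ there beyond their spread. With the length of the longest transcript they did, at 25.95 ± 1.06 CPM per kb for Spred1 and 22.33 ± 1.00 CPM per kb for Dusp5.

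In control cells the order between Dusp1 and Phlda1 was Spred1 (22.5 ± 0.858), Spry2 (11.1 ± 0.337), Spred2 (10.9 ± 0.435), Spry1 (9.70 ± 0.564), Dusp5 (9.51 ± 1.01), Spry4 (9.26 ± 0.182) and Dusp4 (6.14 ± 0.187 CPM per kb). There Spry2 and Spred2 lay within each other's spread, and the ranges of mean ± SD of Spry1, Dusp5 and Spry4 overlapped. Dusp5 therefore stood at rank 4 in siRNA and rank 7 in control cells, and Spry1 at rank 9 in siRNA and rank 6 in control cells. The 4 Dusp members together were at 200.0 ± 3.02 CPM per kb in siRNA and 160.1 ± 3.29 CPM per kb in control cells, of which Dusp6 made up 62.9% ± 0.974 in siRNA and 70.7% ± 0.665 in control cells.

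Ratios of 2 members of a family within a library do not depend on the scaling between libraries, and they were compared for all 10 pairs within the Sprouty, Spred and Dusp families. In 9 pairs the groups did not overlap, and a two-sided exact permutation test on the log2 ratio gave p = 0.00794, the smallest that 5 against 5 libraries allow (0.00882 adjusted over the 10 pairs). Pairs of other genes were not compared, so the share of all pairs that would separate in this way is not known. Of single genes, 57.0% of all those tested did not overlap between the groups. The widest shift was that of Spry4 to Spry1, with 4.72 to 5.61 reads of Spry4 per read of Spry1 in siRNA libraries and 1.46 to 1.64 in control libraries, a difference of 1.66 on the log2 scale. Dusp5 to Dusp6 followed, with 0.131 to 0.147 in siRNA and 0.0582 to 0.0752 in control libraries, a difference of 1.09. Dusp5 also rose more than Dusp4, by 0.46 on the log2 scale, and Spry2 fell less than Spry1, with a difference of 0.77 in their ratio. Even Dusp1 to Dusp6, the narrowest of the 9, differed by 0.26. The ratio of Spred2 to Spred1 was 0.308 to 0.372 in siRNA and 0.300 to 0.356 in control libraries (difference 0.07, exact permutation p = 0.317, also after adjustment), so no shift was detected between them.

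An earlier analysis of these libraries had picked the 7-base word GTAAAGA because 3' UTRs that hold it were tied to lower fold changes. In the longest annotated 3' UTR of each member (GENCODE M21), the word was present once in Spry1, Spry2 and Spred2 and absent from the other 7 members. The sites of all 3 carriers are shown, with the word in capitals, 5′ to 3′ on the strand of the gene.

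Spry1, chr3:37644402-37644428, plus strand: tttttttattGTAAAGAatatttatta

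Spry2, chr14:105892101-105892127, minus strand: attgtttagtGTAAAGAatatttattt

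Spred2, chr11:20022566-20022592, plus strand: aaggccatatGTAAAGAaaaaaaaaaa

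The Spry1 and Spry2 sites share an unbroken run of 17 bases around the word. Of the 3 carriers Spry1 and Spry2 fell and Spred2 rose, and of the 7 members without it 5 rose, Phlda1 fell and Spred1 did not pass. Across 11821 tested genes other than Kdr with a 3' UTR of at least 50 bases, 12.9% held the word. Their median log2 fold change was -0.13 and 51.6% of them were called lower (adjusted p under 0.05), against 0.02 and 33.0% for genes without it. Genes with and without the word were not matched on the length or base content of their 3' UTRs. The log2 fold change of Spry1 (-0.97) was well below that median and that of Spry2 (-0.20) near it. The word was chosen on these data, so these figures are a description, and its part in the fall of Spry1 and Spry2 was not tested.

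Relatives of the members also differed in both directions. Spred3, the third Spred gene, rose to 35.7 ± 1.82 CPM in siRNA cells, against 25.4 ± 1.70 CPM in control cells (SD, n = 5 each), and Phlda3, a p53 target that restrains AKT, fell to 16.7 ± 1.15 CPM in siRNA cells, against 24.3 ± 1.98 CPM in control cells. Spry3 was under the filter on low counts, with 4 to 8 reads in siRNA and 4 to 10 reads in control libraries. Of the 6 other typical MAP kinase phosphatase genes 3 rose, 1 fell and 2 did not pass (66.7% called, beside 71.3% of all tested genes, with a median log2 fold change of 0.25). Dusp2, a nuclear enzyme best known in immune cells, rose by 1.08 on the log2 scale at a low level (7.66 ± 0.826 CPM in siRNA and 3.62 ± 0.536 CPM in control cells), and Dusp16, which acts on JNK and p38, by 0.44. Dusp9, a cytoplasmic relative of Dusp6, was at 4.30 ± 0.371 CPM in siRNA and 0.980 ± 0.157 CPM in control cells (log2 fold change 2.13, edgeR adjusted p = 1.37e-16). Dusp7, also a cytoplasmic ERK phosphatase, fell by 0.14, and Dusp10 did not pass (log2 fold change 0.07, adjusted p = 0.642). A second gene of this list was lower with upper-quartile factors and without siRNA replicate 3, siRNA replicate 5 or control replicate 5.

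The cascade itself changed by small amounts in both directions. Of 21 genes from RAS and its adaptors to ERK, 7 rose, 9 fell and 5 did not pass (76.2% called, beside 71.3% of all tested genes), with a median log2 fold change of -0.03, and none passed the test for more than 1.5-fold. Map2k1, the MEK1 gene, fell by 0.41 on the log2 scale (60.1 ± 1.45 CPM in siRNA and 79.9 ± 2.56 CPM in control cells, SD, n = 5 each), and the adaptor gene Shc1 by 0.33. Mapk3, the ERK1 gene, fell by 0.17. Shoc2, a scaffold that activates RAF, rose by 0.28. Map2k2, the MEK2 gene, rose by 0.09.

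Of 12 other negative regulators of RAS and ERK signalling 6 rose, 5 fell and 1 did not pass (91.7% called, beside 71.3% of all tested genes), with a median log2 fold change of -0.015. Rasa2, a RAS GTPase activator, rose by 0.55 on the log2 scale, and the ubiquitin ligase genes Cbl and Cblb, which mark receptors for breakdown, by 0.37 and 0.34. Lztr1, an adaptor for the breakdown of RAS proteins, fell by 0.55. Nf1, which encodes the neurofibromin that Spred proteins recruit, fell to 94.0 ± 1.54 CPM in siRNA cells, against 110 ± 3.41 CPM in control cells (log2 fold change -0.23, SD, n = 5 each). Il17rd, a membrane inhibitor of FGF signalling to ERK, fell by 0.18.

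**Figure D4:**
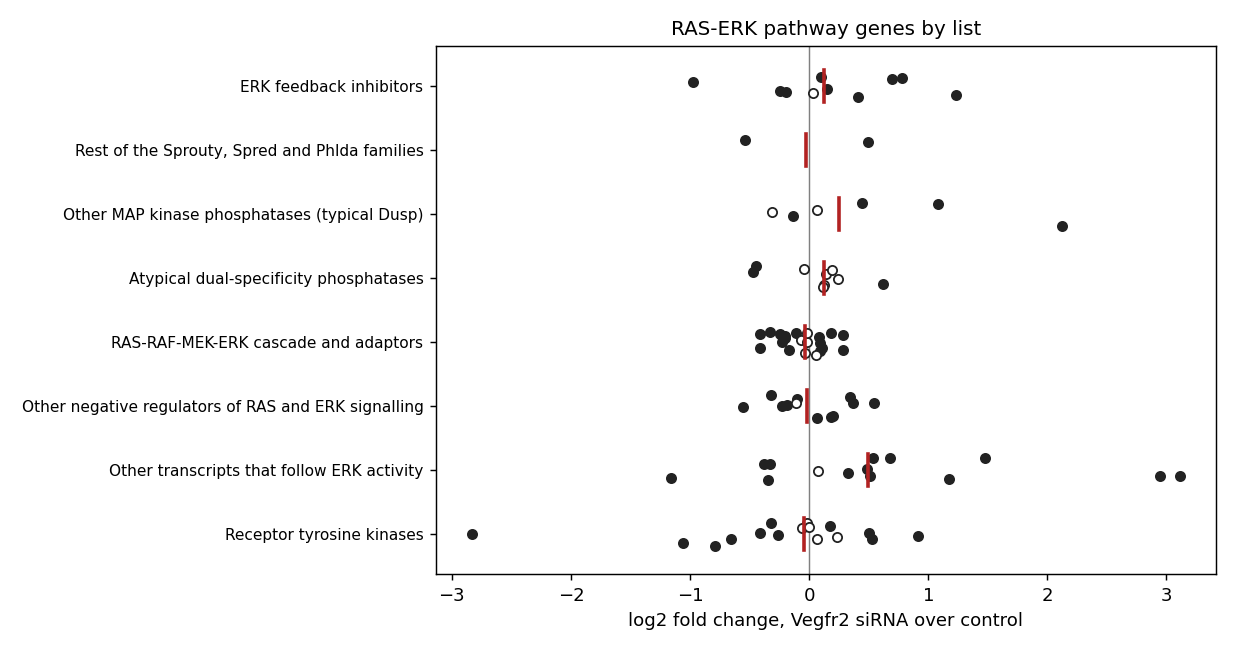
Log2 fold change (x axis), Vegfr2 siRNA over control, of each tested gene in 8 lists of the RAS-ERK pathway (y axis, points spread for visibility). Filled points had an adjusted p under 0.05 and red bars mark list medians, which lie at 0.12 for the feedback inhibitors and at 0.50 for other transcripts that follow ERK activity, with members on both sides of 0 in every list. The lists were written with earlier results of these data known, among them the values of Hbegf and Fosl1, so these medians are a description.

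Other transcripts commonly used as readouts of ERK activity were also split, with more of them higher. Of 14 tested genes 9 rose, 4 fell and 1 did not pass (92.9% called, beside 36.1% higher and 35.2% lower, 71.3% in all, of the tested genes), with a median log2 fold change of 0.50, and Epha4 was under the filter. Hbegf and Fosl1, named in the list with their values already known, had log2 fold changes of 2.94 and 3.11, and Egr1 rose by 1.47 on that scale. The ETS factor gene Etv4 rose to 138 ± 2.32 CPM in siRNA cells, against 96.7 ± 4.44 CPM in control cells (SD, n = 5 each), whereas its close relative Etv5 fell to 42.5 ± 1.59 CPM in siRNA cells, against 53.5 ± 0.937 CPM in control cells. Etv1, singled out after its values were seen, fell by 1.16. The receptor gene Epha2 rose by 0.32, and Ccnd1, the cyclin D1 gene, fell by 0.35.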

How the data were processed

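Estimated counts per gene, not normalized, were deposited by the authors for 10 libraries (5 Vegfr2 siRNA, 5 control). The submitters' processing notes name HISAT2 2.2.1, Bowtie2 2.4.5, RSEM 1.3.1 and GRCm38.p6. What each tool did, the gene models and the strandedness are not stated in the sources used here. In each library 10.5% to 11.3% of genes have a fractional value. Groups and columns follow the labels' titles.

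After rounding, the expected counts went into edgeR 4.0.16 (R 4.3.3), using TMM factors, a filterByExpr minimum of 10, robust quasi-likelihood with a term for group alone, and Benjamini-Hochberg adjustment over 12161 genes at 0.05. The fit was tested on simulated counts in which far fewer genes changed than were called in these data. SEs were derived from the F statistic, and intervals are 95%. Ratios used counts plus 0.5 and exact permutation over 252 assignments (Python 3.11.15, scipy 1.17.1). Exon lengths, overlaps and 3' UTRs came from GENCODE M21, coordinates and promoters from RefSeq. Same-numbered libraries did not deviate together.

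Members, lists and tests were chosen with earlier results of these data known. The text names all members, up to 4 genes a list by smallest adjusted p, and 19 further genes written down by name. Some genes that this rule names are not reported here. Alternatives comprised other scaling (RLE, upper quartile), DESeq2 1.42.0, voom in limma 3.58.1, both a looser and a stricter filter (5 CPM on average), the replicate number as block, glmTreat, each library left out, and other pseudocounts and gene lengths.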

Additional observations from a re-analysis of the deposited data

Results flagged for a closer look

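In siRNA replicate 4 Spry1 was at 13.2 CPM and Spry4 at 74.0 CPM. Spry1 was lower and Spry4 higher there than in the other siRNA libraries by a gap large against the range of the group (0.728 and 0.817 of the range, with 0.71 as the limit for 5 libraries). In all 20 groups of libraries were examined, and chance marks about 1 in 20. Without siRNA replicate 4 the log2 fold change was -0.94 for Spry1 and 0.68 for Spry4.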

How the results depend on the processing

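Over 18 alternative settings, all 10 members kept their direction. Of 180 alternative values, 14 lost a call and 0 gained one, all of them for Phlda1, Spred2 or under glmTreat. Against a fold of 1.5, glmTreat called 3 members higher and 1 lower, and 447 genes higher and 594 lower over the table. Leaving out 1 library gave 5 to 6 members higher and 2 to 3 lower, and 4281 to 4360 genes higher and 4156 to 4220 lower. Same-numbered libraries share only a number: correlations of their deviations ran from -0.0982 to -0.00664. With the replicate block 6 members were higher and 3 lower, and 4322 genes higher and 4215 lower. For ratios, the sign-flip test over 5 pairs, whose smallest p is 0.0625, called 0 of 10 pairs, a design too small to pass. With the length of the longest transcript 2 members, Spry2 and Spred2, exchanged ranks in control cells. Scaling moved the median of all genes by less than 0.1 on the log2 scale. Phlda1 had the fewest reads of the members, 72 to 117 a library.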

Other observations

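Receptors that feed the pathway and the atypical dual-specificity phosphatases, most of which do not act on ERK, were counted as well. Of 16 tested receptor tyrosine kinase genes 4 rose, 7 fell (the target Kdr among them) and 5 did not pass, 68.8% called beside 71.3% of all tested genes. Flt4, the VEGFR3 gene, fell to 1424 ± 71.4 CPM in siRNA cells, against 2967 ± 114 CPM in control cells, and the angiopoietin receptor genes Tie1 and Tek fell by 0.66 and 0.32 on the log2 scale. Fgfr1, an FGF receptor gene, rose to 289 ± 8.03 CPM in siRNA cells, against 204 ± 11.3 CPM in control cells (SD, n = 5 each).

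Of 9 tested atypical phosphatase genes 1 rose, 2 fell and 6 did not pass, 33.3% called beside 71.3% of all tested genes. Dusp3, which encodes VHR, fell to 84.1 ± 3.78 CPM in siRNA cells, against 117 ± 1.69 CPM in control cells, and Dusp22 to 22.5 ± 0.450 CPM in siRNA cells, against 30.7 ± 0.535 CPM in control cells (SD, n = 5 each). Dusp12 rose by 0.62 on the log2 scale, and a second gene of the list was higher without siRNA replicate 1, control replicate 4 or control replicate 5.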
